A study of Rattus norvegicus with 24 samples.

Results

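INS-1E cells were exposed to the compound BRD0476 at 10 uM without cytokines, and their transcripts after 12 h of exposure were compared with those after 6 h. INS-1E is a rat insulinoma line that makes and secretes insulin and is used as a model of the pancreatic beta cell; it is a tumour line kept in culture, not islet tissue. The comparison rests on 6 of the series' 24 Affymetrix arrays, 3 from cells with BRD0476 for 12 h and 3 from cells with BRD0476 for 6 h, chosen by their labelled agent, time and lack of cytokines. The only other groups used for comparison were cells with the vehicle DMSO and no cytokines, 3 arrays at 12 h and 3 at 6 h, which give the change over the same hours without the compound. The other 12 arrays received IL-1b, IFN-g and TNF-a with or without BRD0476 and entered only the shared estimate of the spread. All groups grew in the same medium, and no array taken before treatment was used, so every change is between 2 exposed states and not from a start. BRD0476 is known here by its code name alone.

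Levels are log2 intensities, the deposited intensity of a gene's probe set taken to log2, and a change is the mean at 12 h minus the mean at 6 h, so that a change of 1 is a 2-fold rise. Changes are given ± their standard error with n = 3 arrays per group, and p-values come from limma, adjusted with Benjamini and Hochberg over 14217 genes. A gene is said to have changed, or is called, at an adjusted p under 0.05. The labels do not say whether the 3 arrays of a group came from separate cultures, so the p-values measure the spread between these arrays. The 6 arrays had median levels between 5.51 and 5.53, and the correlation between 2 arrays of a group ran from 0.996 to 0.998. The lower quartile of all levels lay at 3.84, and a level near it is close to the dimmest signals on the arrays. The labelled cell type was checked against defining beta-cell genes: Ins1, Ins2, Iapp, Pdx1, Nkx6-1, Mafa, Slc2a2 and Chga, 8 of 8, lay above the median of all values, between 9.27 and 14.59 in the BRD0476 groups.

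Several of the gene groups that moved are read-outs of well-known control circuits. ATF4 is the transcription factor of the integrated stress response: when amino acids run short or unfolded proteins load the endoplasmic reticulum, its translation is favoured and it switches on amino acid transporters, amino acid synthesis, aminoacyl-tRNA synthetases and feedback genes such as Trib3 and Chac1. SREBP factors switch on cholesterol and fatty acid synthesis genes when sterols are scarce. Immediate early genes such as Fos and Nr4a1 respond within minutes to calcium and cAMP, signals that also follow glucose stimulation of beta cells, and Dbp and the Per genes are outputs or parts of the circadian clock.

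The ATF4 circuit has a known DNA element, and the promoters of the members that fell are shown because of it. The RefSeq promoter windows of assembly GRCr8, from 250 bases before to 50 bases after each gene's start, were searched for TGATGNAA (the CEBP-ATF composite element, N being any base) on both strands. Among 11733 genes tested that have a window, 2.21% held a match. Among ATF4 targets it was 6 of 26 windows, 23.08%, and among aminoacyl-tRNA synthetases 7 of 15, 46.67%. A match describes the letters of the window and was not tested as a binding site. The whole window of Chac1 is chr3:126795881-126796180 on the plus strand, with the match, in capitals, starting 167 bases before the gene start; a match on the opposite strand reads as the reverse complement of the element.
Chac1: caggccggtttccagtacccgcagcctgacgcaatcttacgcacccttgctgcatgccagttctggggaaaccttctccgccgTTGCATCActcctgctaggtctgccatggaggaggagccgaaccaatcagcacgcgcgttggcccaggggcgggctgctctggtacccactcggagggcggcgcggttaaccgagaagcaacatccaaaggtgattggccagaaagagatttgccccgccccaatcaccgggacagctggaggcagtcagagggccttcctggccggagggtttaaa

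For the other genes described that hold it, the match is printed in capitals with up to 16 bases on each side, so that the copies can be compared. They lie at chr1:190645933-190645972 on the minus strand (Nupr1), chr3:161275531-161275570 minus (Trib3), chr12:11664442-11664481 plus (Slc7a1), chr1:208225329-208225368 minus (Cars1), chr7:65023747-65023786 minus (Mars1), chr5:146820185-146820212 plus (Yars1) and, for the Aars1 match farther upstream, chr19:55908354-55908393 plus.
Nupr1: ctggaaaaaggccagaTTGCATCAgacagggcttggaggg
Trib3: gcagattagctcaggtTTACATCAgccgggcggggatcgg
Slc7a1: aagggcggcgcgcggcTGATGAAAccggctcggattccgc
Cars1: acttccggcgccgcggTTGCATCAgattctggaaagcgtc
Mars1: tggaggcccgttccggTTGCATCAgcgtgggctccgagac
Yars1: gagctacgagctcagcTGATGCAAcctg
Aars1: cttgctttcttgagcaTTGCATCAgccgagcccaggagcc

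Between 6 h and 12 h with BRD0476, 394 of 14217 genes changed, 2.77% of those tested, with 162 higher (1.14%) and 232 lower (1.63%) at 12 h. Few changes were large: 6 genes rose and 6 fell by at least 2-fold, 0.0422% each. The changes ran from -1.41 for Poteml2 to 1.38 for Nr4a1, around a median over all genes of 0.00 and a median absolute change of 0.08. Without overlap between the 12 h and the 6 h arrays were 3087 genes, 21.7% of those tested, and 393 of the 394 called genes were among them. An unadjusted p under 0.05 was reached by 1901 genes. The number called fell to between 211 and 286 when single arrays were left out: 211, 254 and 231 without 12 h replicates 1, 2 and 3, and 244, 247 and 286 without 6 h replicates 1, 2 and 3.

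Many of these changes were also seen over the same hours in DMSO. There 238 genes changed, 1.67% of those tested, 66 up (0.464%) and 172 down (1.21%). Left out in turn, 12 h DMSO replicates 1, 2 and 3 and 6 h DMSO replicate 1 gave 139, 132, 147 and 142 calls. Without 6 h DMSO replicate 2, an array that stood apart, 279 genes were called, 135 up and 144 down, and with array weights the split was 824 up and 721 down, so the balance of rises and falls in DMSO depends on these settings. Of the genes called with BRD0476, 137 were called in DMSO in the same direction, 33 up and 104 down, and 0 in the opposite direction. That is 34.8% of the genes called with BRD0476 and 57.6% of those called in DMSO. The comparisons share no array. Across the 14217 genes, which are not independent of each other, the changes correlated with Pearson's r = 0.502 and Spearman's rho = 0.41.

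**Figure D1:**
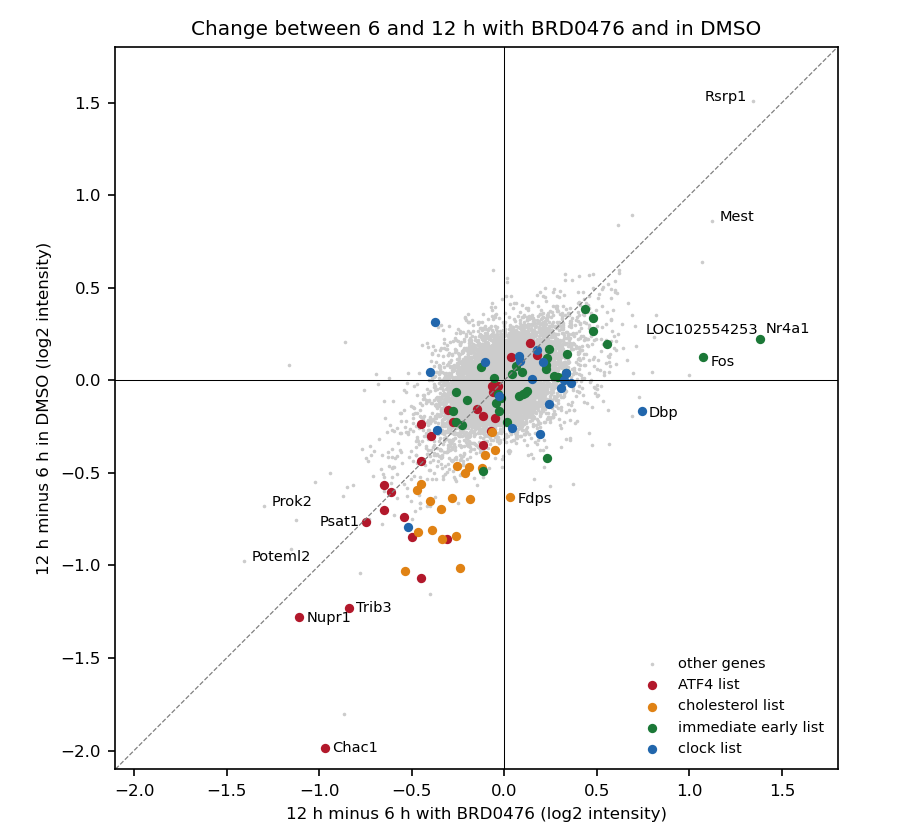
Change in level between 6 and 12 h (12 h minus 6 h, log2 intensity) with BRD0476 on the horizontal axis and in DMSO on the vertical axis, one point per gene over 14217 genes, with 4 gene lists coloured and the dashed line marking equal change. Nupr1, Trib3 and Psat1 lie low on both axes and Rsrp1 and Mest high on both, while Nr4a1, Fos, LOC102554253 and Dbp lie far right near 0 in DMSO.

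Genes of the ATF4 circuit fell. Of 27 measured members of the list of ATF4 targets and integrated stress response genes, 12 were lower at 12 h and 0 higher. That is 44.4%, against 2.77% of all genes called. The median change was -0.31, against 0.00 over all genes, and 24 of 27 changes were negative. The count stayed between 10 and 13 over the alternative settings. In DMSO 13 members fell and 0 rose, with a median of -0.30, and 11 of the 12 that fell with BRD0476 were among them.

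Nupr1, a small stress-induced chromatin protein, had levels of 9.87, 9.75 and 9.78 with BRD0476 at 12 h, against 10.95, 10.94 and 10.84 at 6 h. All 12 h arrays lay about 1 log2 unit below all 6 h arrays. The change was -1.11 ± 0.06 (adjusted p = 7.57e-10), so its intensity fell by 53.6%, and in DMSO the change was -1.28 (adjusted p = 5.14e-11). The difference between the changes was 0.17, with a 95% interval from -0.01 to 0.35.

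Trib3, a pseudokinase that feeds back on ATF4 and CHOP, had levels of 7.70, 7.54 and 7.44 at 12 h, against 8.51, 8.34 and 8.34 at 6 h. The groups did not overlap. Its change was -0.84 ± 0.12 (adjusted p = 0.000165), and 3 of its 3 probe sets were called lower. Psat1, an enzyme of serine synthesis, had 11.80, 11.71 and 11.73 at 12 h, against 12.53, 12.51 and 12.44 at 6 h. Its arrays of one time lay within 0.1 of each other while the times were 0.75 ± 0.07 apart, lower at 12 h (adjusted p = 1.26e-06). In DMSO Psat1 fell by 0.77, and the difference was 0.02, with a 95% interval from -0.18 to 0.22.

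Chac1, which breaks down glutathione and is a sensitive ATF4 target, had levels of 8.78, 8.77 and 8.73 with BRD0476 at 12 h, against 9.77, 9.68 and 9.74 at 6 h. In DMSO its levels were 7.05, 7.04 and 7.21 at 12 h, against 9.09, 9.08 and 9.09 at 6 h. None of the 4 groups overlapped, and the 12 h DMSO arrays were the lowest of all. Chac1 fell by 0.97 ± 0.10 with BRD0476 (adjusted p = 6.65e-06) and by 1.99 ± 0.10 in DMSO (adjusted p = 1.19e-10). As an intensity it fell by 49.0% with BRD0476 and fell by 74.7% in DMSO. The test of the difference is given with the other such genes further on.

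Of the 22 polyamine, nucleotide and one-carbon genes, 2 fell (9.1%, against 2.77% of all genes called) and 0 rose, with a median change of -0.02. Both are also on the ATF4 list. Shmt2, which splits serine to feed folate, fell by 0.65 ± 0.12 (adjusted p = 0.00321), and Mthfd2, which acts next in that path, by 0.54 ± 0.08 (adjusted p = 0.000231). Atf4 itself was bright and moved less, with 12.16, 12.19 and 12.18 at 12 h, against 12.47, 12.46 and 12.52 at 6 h. The 3 arrays of each time lay close together and did not overlap with the other time. Atf4 fell by 0.31 ± 0.07 (adjusted p = 0.0117), a call that was lost without 12 h replicate 1 (adjusted p = 0.0589) and without 6 h replicate 3 (0.0525). Ddit3, which encodes CHOP, was not called, at 0.14 (adjusted p = 0.652).

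Aminoacyl-tRNA synthetases, which load amino acids onto their tRNAs, fell too. Of 17 measured, 8 were lower (47.1%, against 2.77% of all genes called) and 0 higher, with a median change of -0.27. In DMSO 10 fell at a median of -0.34, and 8 of the 8 were among them. The BRD0476 count was 5 without 12 h replicate 1. Mars1, the methionyl-tRNA synthetase, had 10.25, 10.25 and 10.23 at 12 h, against 10.82, 10.79 and 10.62 at 6 h, a change of -0.50 ± 0.10 (adjusted p = 0.00513). Yars1 (tyrosine) had 10.62, 10.56 and 10.64, against 11.15, 10.98 and 11.08, a change of -0.46 ± 0.07 (adjusted p = 0.000582). For each of these enzymes the 12 h arrays all lay below the 6 h arrays. Aars1 (alanine) fell by 0.46 ± 0.08 (adjusted p = 0.00161). Of the 8 called synthetases with a promoter window, 6 held the element printed above.

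Among 24 amino acid transporters, 6 fell (25.0%, against 2.77% of all genes called) and 0 rose, with a median change of -0.13. In DMSO 6 fell at a median of -0.14. Slc7a1, which takes up arginine and lysine, had 9.88, 9.84 and 10.03 at 12 h, against 10.49, 10.31 and 10.46 at 6 h, and fell by 0.50 ± 0.09 (adjusted p = 0.00212). Slc1a5, a glutamine transporter, fell by 0.41 ± 0.07 (adjusted p = 0.000874). The arrays of the times did not overlap for these genes. The count of falling transporters was less stable than the fall of Slc7a1 and Slc1a5: it was 3 without 12 h replicate 2 or 3 or 6 h replicate 3, and 2 without 6 h replicate 1.

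**Figure D2:**
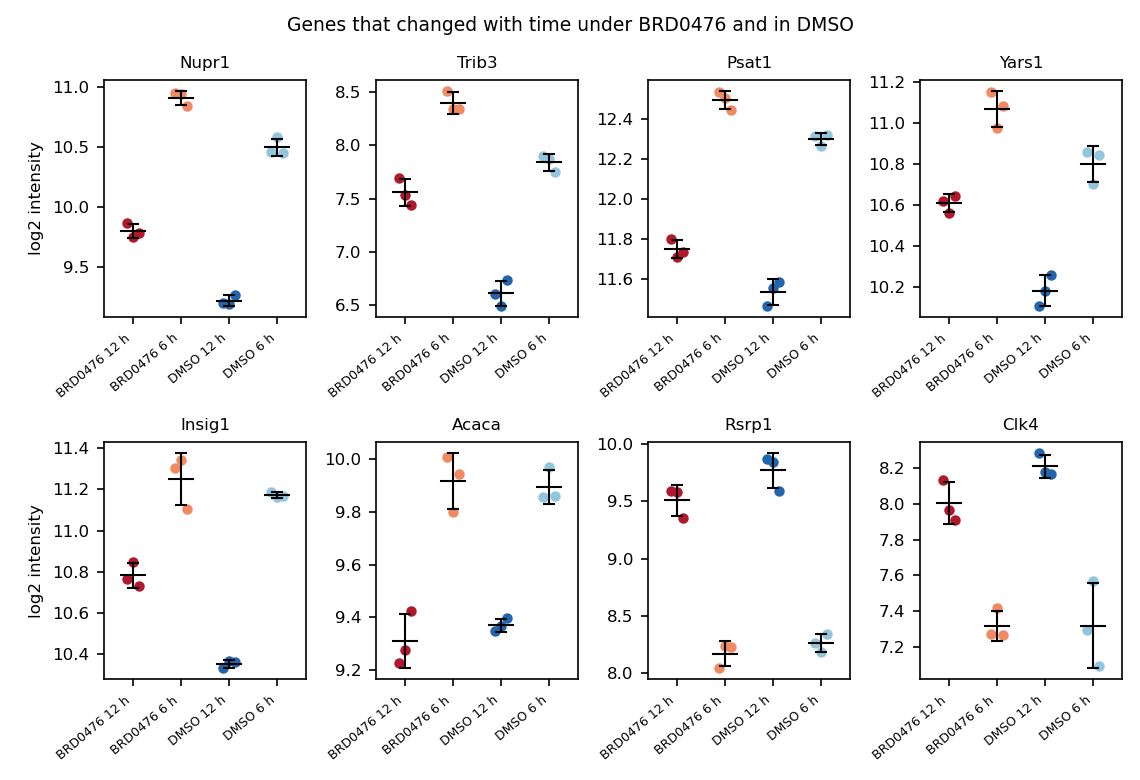
Levels (log2 intensity, vertical axes, each on its own range) of 8 genes that changed with time under BRD0476 and in DMSO, with one point per array and the mean and SD of 3 arrays per group. Nupr1, Trib3, Psat1, Yars1, Insig1 and Acaca are lower at 12 h than at 6 h with BRD0476 and in DMSO, and Rsrp1 and Clk4 are higher.

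Lipid synthesis genes were lower at 12 h. Of 20 measured genes of cholesterol synthesis and uptake, 9 fell (45.0%, against 2.77% of all genes called) and 0 rose with BRD0476. The median change was -0.26, and 19 of 20 changes were negative. In DMSO the same list had 18 lower and 0 higher and a median of -0.63, and the 9 that fell with BRD0476 were all among the 18. The difference between the 2 changes was positive, that is, the fall was smaller with BRD0476, for 20 of 20 members, with a median of 0.35 against -0.01 over all genes. Of these differences only that of Fdps was called, so for the others the values are given as a description.

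Insig1, which holds SREBP in the endoplasmic reticulum when sterols are plentiful and is itself an SREBP target, had 10.77, 10.85 and 10.73 with BRD0476 at 12 h, against 11.30, 11.34 and 11.11 at 6 h. The groups did not overlap. It fell by 0.47 ± 0.06 with BRD0476 (adjusted p = 8e-05) and by 0.82 in DMSO (adjusted p = 3.89e-08), and the difference of 0.35 had a 95% interval from 0.17 to 0.53 but was not called (adjusted p = 0.224). Fdft1, squalene synthase, fell by 0.54 ± 0.10 with BRD0476 (adjusted p = 0.00305), against 1.03 in DMSO. Dhcr7, the last enzyme of the path, fell by 0.47 ± 0.07 (adjusted p = 0.000637), against 0.59 in DMSO. Srebf2, which encodes the sterol-sensing SREBP2, was not called, at -0.05 (adjusted p = 0.96).

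Fatty acid synthesis genes fell by like amounts with the compound and without it: 7 of 18 were lower and 0 higher with BRD0476, and 7 of 18 in DMSO, with medians of -0.20 in each. That is 38.9% each time, against 2.77% of all genes called with BRD0476 and 1.67% in DMSO. Of the 7 that fell with BRD0476, 7 had fallen in DMSO. Acaca, acetyl-CoA carboxylase, had 9.23, 9.28 and 9.42 at 12 h, against 10.00, 9.80 and 9.94 at 6 h, a change of -0.60 ± 0.09 (adjusted p = 0.000199). Fasn, the fatty acid synthase, fell by 0.46 ± 0.09 (adjusted p = 0.00323), and Elovl6, which lengthens its products, by 0.54 ± 0.10 (adjusted p = 0.00306). Acsl1, which activates long-chain fatty acids, fell by 0.52 ± 0.06 (adjusted p = 5.31e-05), although 1 of its 3 probe sets had the other sign without being called. The promoter windows of neither list held the sterol element TCACNCCAC, with 0 of 16 cholesterol and 0 of 15 fatty acid windows against 1.12% of windows of genes tested. In so few windows a share of 1.12% would commonly give 0 matches, so the count cannot set these lists apart from all genes.

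Of 22 genes of glycolysis and glucose response, 3 fell (13.6%, against 2.77% of all genes called) and 0 rose, with a median change of -0.14. In DMSO 2 fell at a median of -0.08. Gpi fell by 0.39 ± 0.10 (adjusted p = 0.0368), a call lost under 6 of 15 alternatives. Gpd1, which makes glycerol 3-phosphate, fell by 0.61 ± 0.09 (adjusted p = 0.000201), against 0.55 in DMSO. Gcgr, the glucagon receptor, had 6.93, 6.71 and 6.96 at 12 h, against 7.49, 7.48 and 7.41 at 6 h, and fell by 0.59 ± 0.07 (adjusted p = 4.37e-05), against 0.42 in DMSO. The times did not overlap for it.

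The largest fall was that of Poteml2, with 5.74, 5.50 and 5.73 at 12 h, against 7.03, 6.87 and 7.29 at 6 h, a change of -1.41 ± 0.11 (adjusted p = 8.03e-08). In DMSO it fell by 0.98. Prok2, a secreted prokineticin, had 6.34, 6.64 and 6.19 at 12 h, against 7.62, 7.85 and 7.60 at 6 h. Its arrays were separated by about 1 log2 unit, and it fell by 1.30 ± 0.13 (adjusted p = 6.22e-06), against 0.68 in DMSO. Tm6sf2, a protein of lipid export, fell by 1.15 ± 0.08 (adjusted p = 3.39e-08), Serpinb9b, a serpin, by 1.02 ± 0.11 (adjusted p = 9.36e-06) and Pde2a, a phosphodiesterase that breaks down cAMP and cGMP, by 0.82 ± 0.11 (adjusted p = 0.000199). These genes fell in DMSO as well, Tm6sf2 by 0.91, Serpinb9b by 0.55 and Pde2a by 0.56, and none of their differences was called. Gadd45a, a growth-arrest gene, had 9.38, 9.52 and 9.23 at 12 h, against 9.92, 10.00 and 9.95 at 6 h, and fell by 0.58 ± 0.07 (adjusted p = 4.63e-05). In DMSO its change of -0.26 was not called (adjusted p = 0.0835), and the difference of -0.33 was not called either (adjusted p = 0.57).

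The largest rise shared with DMSO was that of Rsrp1, which encodes an arginine- and serine-rich protein. Its levels were 9.59, 9.59 and 9.36 with BRD0476 at 12 h, against 8.04, 8.24 and 8.23 at 6 h, and 9.87, 9.85 and 9.60 in DMSO at 12 h, against 8.26, 8.18 and 8.34 at 6 h. With BRD0476 and in DMSO alike, all 12 h arrays lay more than 1 log2 unit above all 6 h arrays. It rose by 1.34 ± 0.09 with BRD0476 (adjusted p = 8.83e-09) and by 1.51 in DMSO (adjusted p = 6.53e-10). A pair of CLK kinases, which phosphorylate splicing factors, also rose: Clk4 by 0.69 ± 0.10 (adjusted p = 0.000199) and Clk1 by 0.58 ± 0.08 (adjusted p = 0.00015), against 0.89 and 0.49 in DMSO. Of 29 splicing factors and CLK kinases 3 rose (10.3%, against 2.77% of all genes called) and 0 fell with BRD0476, with a median change of 0.12. The third was Hnrnph1, at 0.34 ± 0.06 (adjusted p = 0.00323). All 3 rose in DMSO as well. Mest, an imprinted gene, had 10.83, 10.88 and 10.96 at 12 h, against 9.81, 9.60 and 9.89 at 6 h, and rose by 1.12 ± 0.21 (adjusted p = 0.00417), against 0.86 in DMSO.

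Immediate early genes were among the strongest rises with BRD0476. Of 35 measured, 6 rose (Per1, described with the clock, among them) and 0 fell, with a median change of 0.10. That is 17.1%, against 2.77% of all genes called. In DMSO 1 rose and 1 fell (5.7%, against 1.67% of all genes called), with a median of 0.02. The BRD0476 count was 3 without 6 h replicate 1 or 2. Nr4a1, an orphan nuclear receptor, had levels of 6.63, 6.41 and 7.08 with BRD0476 at 12 h, against 5.43, 5.24 and 5.31 at 6 h, and in DMSO 4.97, 5.34 and 5.34 at 12 h, against 4.72, 4.89 and 5.37 at 6 h. The 12 h BRD0476 arrays lay above the other 9, and the 6 h BRD0476 arrays lay at the upper end of the DMSO arrays. Nr4a1 rose by 1.38 ± 0.16 (adjusted p = 2.44e-05), a 2.61-fold rise, against 0.22 in DMSO (adjusted p = 0.719). The difference of 1.16 had a 95% interval from 0.69 to 1.63 and was not called (adjusted p = 0.0629).

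Fos, a subunit of AP-1, had 6.51, 6.27 and 6.45 with BRD0476 at 12 h, against 5.46, 5.11 and 5.45 at 6 h, and in DMSO 5.46, 5.67 and 5.63 at 12 h, against 5.40, 5.86 and 5.13 at 6 h. The 12 h BRD0476 arrays were again the highest. Fos rose by 1.07 ± 0.18 (adjusted p = 0.00185), its difference from DMSO of 0.95 was not called (adjusted p = 0.396), and its dimmer second probe set, at a mean level of 3.98, was not called (adjusted p = 0.811 with BRD0476). Egr1, a zinc-finger factor, had 8.76, 8.81 and 8.90 at 12 h, against 8.30, 8.30 and 8.43 at 6 h, and rose by 0.48 ± 0.11 (adjusted p = 0.0235). The times did not overlap, but the call of Egr1 was lost without 12 h replicate 1, 2 or 3 (adjusted p = 0.0552, 0.07 and 0.106) and without 6 h replicate 1 or 2 (0.0926 and 0.0906). A CArG box, the element bound by serum response factor, was found in 6 of 25 immediate early promoter windows, against 1.35% of windows of genes tested, and Egr1 was the only one of the 5 called members with a window that held it.

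**Figure D3:**
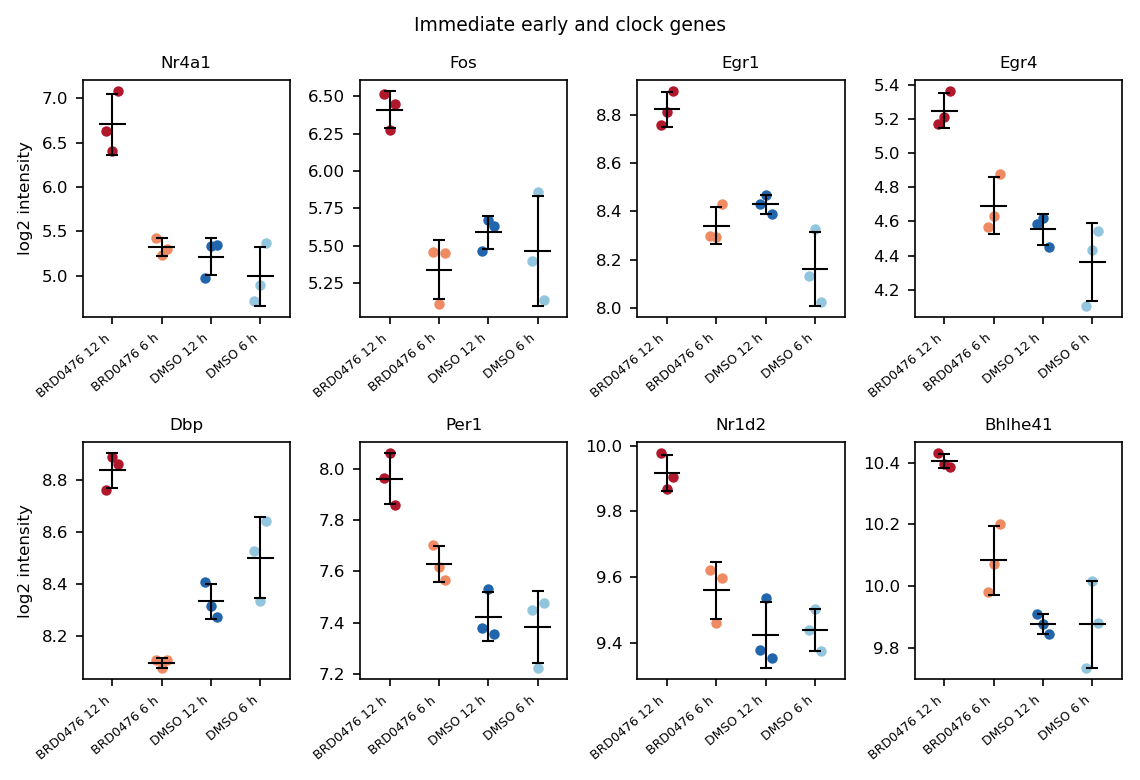
Levels (log2 intensity, vertical axes, each on its own range) of immediate early genes in the upper row and clock genes in the lower row, with one point per array and the mean and SD of 3 arrays per group. In every panel the 12 h BRD0476 arrays lie above the 6 h BRD0476 arrays and above the DMSO arrays.

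Of 19 clock genes, 4 rose (21.1%, against 2.77% of all genes called) and 0 fell with BRD0476, with a median change of 0.15. In DMSO 0 of 19 was called in either direction, at a median of 0.00. Among the differences between BRD0476 and DMSO, that of Dbp was called. Dbp, a PAR-bZIP factor driven by CLOCK and BMAL1, had 8.76, 8.89 and 8.86 with BRD0476 at 12 h, against 8.10, 8.07 and 8.10 at 6 h, and in DMSO 8.41, 8.32 and 8.27 at 12 h, against 8.53, 8.33 and 8.64 at 6 h. The 6 h BRD0476 arrays were the lowest of the 12 and the 12 h BRD0476 arrays the highest. Dbp rose by 0.74 ± 0.10 (adjusted p = 0.000102). The E-box letters CACGTG were found in 3 of 16 clock promoter windows (18.75%), against 8.92% of windows of genes tested. Of the 4 called members only Bhlhe41 held them, and Dbp did not.

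The other 3 clock members called had smaller changes with less stable calls. Nr1d2, a repressor of Bmal1, rose by 0.36 ± 0.08 (adjusted p = 0.0123), a call lost without 12 h replicate 1 (0.0764) or 6 h replicate 2 (0.0781). Bhlhe41 rose by 0.32 ± 0.08 (adjusted p = 0.0249), lost without 12 h replicate 1, 2 or 3 (0.107, 0.0739 and 0.0684) and without 6 h replicate 1 or 2 (0.141 and 0.0844). Per1 rose by 0.33 ± 0.09 (adjusted p = 0.04), lost without 12 h replicate 1 or 2 (0.13 and 0.179) and without 6 h replicate 1, 2 or 3 (0.0613, 0.118 and 0.141). The count of 4 was thus 1 without 12 h replicate 1 or 6 h replicate 2, and 2 without 12 h replicate 2 or 6 h replicate 1. Bmal1 itself was at -0.37 ± 0.19 (adjusted p = 0.404), Per2 at 0.19 ± 0.09 (adjusted p = 0.388) and Nr1d1 at 0.31 ± 0.25 (adjusted p = 0.695), none of them called.

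The inhibitors of bHLH factors Id1 and Id3, which BMP signals induce, were higher as well. Id1 had 8.98, 8.85 and 8.77 at 12 h, against 8.24, 8.33 and 8.46 at 6 h, and rose by 0.52 ± 0.10 (adjusted p = 0.00427). Id3 had 7.30, 7.02 and 7.04 at 12 h, against 6.49, 6.33 and 6.70 at 6 h, and rose by 0.61 ± 0.12 (adjusted p = 0.00519). Neither gene's times overlapped. Of 22 genes of TGF-beta, BMP and Id signalling, 3 rose (13.6%, against 2.77% of all genes called) and 0 fell with BRD0476, against 0 called in DMSO. The third was the pseudoreceptor Bambi at 0.29 ± 0.06 (adjusted p = 0.00631), lost without 12 h replicate 2 (0.0512). The difference from DMSO was 0.55 for Id1, with a 95% interval from 0.26 to 0.85, and was not called (adjusted p = 0.284).

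Other rises with BRD0476 spanned unrelated functions. Mt2A, a metallothionein that binds zinc, had 8.003, 7.92 and 7.80 at 12 h, against 6.74, 7.18 and 7.37 at 6 h, and rose by 0.81 ± 0.13 (adjusted p = 0.00126). The 6 h arrays of Mt2A spread over more than the gap between the times. Trpc4, a cation channel, rose by 0.80 ± 0.15 (adjusted p = 0.00347), Blnk, an adaptor of B-cell receptor signalling, by 0.82 ± 0.13 (adjusted p = 0.000592) and Spock3, a matrix proteoglycan, by 1.07 ± 0.20 (adjusted p = 0.0034). Igfbp1, a FOXO target that binds insulin-like growth factors, rose by 0.71 ± 0.09 (adjusted p = 0.000103). Scg2, secretogranin II of the secretory granule, had 11.49, 11.41 and 11.45 at 12 h, against 11.02, 10.92 and 11.13 at 6 h, and rose by 0.43 ± 0.07 (adjusted p = 0.00207), the only one of 18 insulin, processing and granule genes called. None of these was called in DMSO, where Spock3 changed by 0.64, Blnk by 0.35, Igfbp1 by 0.30, Mt2A by 0.23, Scg2 by 0.08 and Trpc4 by 0.05. None of their differences was called.

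Whether the change over time differed between BRD0476 and DMSO was tested for every gene as the change with BRD0476 minus the change in DMSO. It was called for 10 genes, 0.0703% of those tested, 9 higher (0.0633%) and 1 lower (0.00703%), and an unadjusted p under 0.05 was reached by 615. Of the 10, 9 were called with BRD0476, 5 in DMSO and 4 in both. At the probe sets used, every other gene called only with BRD0476 or only in DMSO was thus not shown to differ. The median standard error of such a difference was 0.14, against 0.10 for a change. With probe sets taken singly, 13 differences were called. Among them were dimmer probe sets of Lrrc39 (1.36, adjusted p = 0.00204) and Abca1 (-0.66, adjusted p = 0.0283). At their brightest probe sets these genes had differences of 0.97 and -0.54, which were not called.

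Among the 10 genes called for the difference, 4 belong to the ATF4 circuit and fell less with BRD0476 than in DMSO. For Chac1 the difference was 1.02, with a 95% interval from 0.72 to 1.31 (adjusted p = 0.00348). Slc1a4, a transporter of alanine and serine, had 8.41, 8.28 and 8.19 with BRD0476 at 12 h, against 8.79, 8.54 and 8.76 at 6 h, and 7.33, 7.42 and 7.46 in DMSO at 12 h, against 8.49, 8.63 and 8.55 at 6 h. The 12 h DMSO arrays stood well below the other 9. Its changes were -0.40 ± 0.09 with BRD0476 (adjusted p = 0.0109, lost without 12 h replicate 3, at 0.0709, and without 6 h replicate 1 or 3, at 0.0685 and 0.0538) and -1.16 in DMSO, a difference of 0.75 (0.50 to 1.01, adjusted p = 0.013).

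Cars1, the cysteinyl-tRNA synthetase, had 8.45, 8.57 and 8.49 with BRD0476 at 12 h, against 8.997, 8.95 and 8.93 at 6 h, and 7.58, 7.72 and 7.56 in DMSO at 12 h, against 8.74, 8.63 and 8.75 at 6 h. No group overlapped another, and the fall was -0.45 ± 0.08 with BRD0476 and -1.08 in DMSO, a difference of 0.63 (0.40 to 0.86, adjusted p = 0.0248). The differences of its other probe sets, at 0.57, 0.48 and -0.09, were not called. For Atf4 the DMSO levels were 11.36, 11.34 and 11.34 at 12 h, against 12.11, 12.40 and 12.11 at 6 h. With the BRD0476 levels given above, the difference was 0.55 (0.36 to 0.75, adjusted p = 0.0189). Over the lists, 15 of 27 differences were positive for ATF4 targets, at a median of 0.02, and 12 of 17 for synthetases, at a median of 0.13, against -0.01 over all genes. Without 6 h DMSO replicate 2 these were 18 of 27 at a median of 0.06 and 14 of 17 at 0.155. None of these list values was tested.

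Fdps, which makes farnesyl diphosphate for cholesterol and protein prenylation, had 12.15, 12.19 and 12.18 with BRD0476 at 12 h, against 12.23, 12.17 and 12.03 at 6 h. In DMSO it had 11.69, 11.71 and 11.73 at 12 h, against 12.30, 12.41 and 12.31 at 6 h. The BRD0476 times overlapped and the DMSO times did not. Its change was 0.03 ± 0.06 with BRD0476 (adjusted p = 0.921) and -0.63 in DMSO (adjusted p = 1.97e-06), a difference of 0.66 (0.48 to 0.84, adjusted p = 0.00325).

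The differences of 3 genes that rose with BRD0476 and were not called in DMSO were called too. For Dbp, with the levels given above, it was 0.91 (0.62 to 1.20, adjusted p = 0.00719). LOC102554253, a locus named by its number alone, had 7.86, 7.83 and 8.05 with BRD0476 at 12 h, against 6.85, 6.71 and 6.99 at 6 h, and 6.31, 6.34 and 6.47 in DMSO at 12 h, against 6.12, 6.43 and 6.17 at 6 h. All BRD0476 arrays lay above all DMSO arrays, and the 12 h BRD0476 arrays stood apart at the top. It rose by 1.06 ± 0.09 with BRD0476 (adjusted p = 4.34e-07), a difference of 0.93 (0.67 to 1.20, adjusted p = 0.00325).

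Spp2, a secreted phosphoprotein, lay lower with BRD0476 than in DMSO, with 7.56, 7.38 and 7.56 with BRD0476 at 12 h, against 6.81, 6.68 and 6.84 at 6 h, and 7.86, 8.03 and 7.92 in DMSO at 12 h, against 8.05, 7.99 and 8.04 at 6 h. Both BRD0476 groups lay below both DMSO groups, the 6 h arrays farther. It rose by 0.73 ± 0.10 with BRD0476 (adjusted p = 0.000102), a difference of 0.82 (0.54 to 1.10, adjusted p = 0.0158). Tle3, a Groucho-type corepressor, was the 1 gene with a negative difference: its levels were 7.89, 7.75 and 7.91 with BRD0476 at 12 h, against 8.42, 8.13 and 8.33 at 6 h, and 7.86, 7.90 and 8.06 in DMSO at 12 h, against 7.74, 7.79 and 7.73 at 6 h. The 6 h BRD0476 arrays of Tle3 lay above the other 9. It fell by 0.44 ± 0.08 with BRD0476 (adjusted p = 0.004), a difference of -0.63 (-0.88 to -0.38, adjusted p = 0.0477). The last of the 10 was Tp53inp2, an autophagy factor, described because of its call and chosen after its values were seen, which rose by 0.56 with BRD0476 and had a difference of 0.43 (0.27 to 0.58, adjusted p = 0.0248).

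The DMSO side of these tests holds an array that stood apart, 6 h DMSO replicate 2, whose mean correlation with its group was 0.9957 and which had the group's lowest array weight, 0.318. Without it 11 differences were called, and the median difference of the cholesterol list was 0.355 with 20 of 20 positive. That of the amino acid transporters became 0.11, against 0.05 with it, and that of the immediate early genes 0.09, against 0.14 with it. Over the 12 arrays left out in turn the count of differences ran from 4 to 11: it was 4 without 12 h BRD0476 replicate 1 or 12 h DMSO replicate 1, 5 without 12 h BRD0476 replicate 3, and 6 without 6 h BRD0476 replicate 2 or 12 h DMSO replicate 3. Chac1, Dbp and Fdps were called with each array left out, at adjusted p-values up to 0.0204, 0.0317 and 0.026 over all alternatives.

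**Figure D4:**
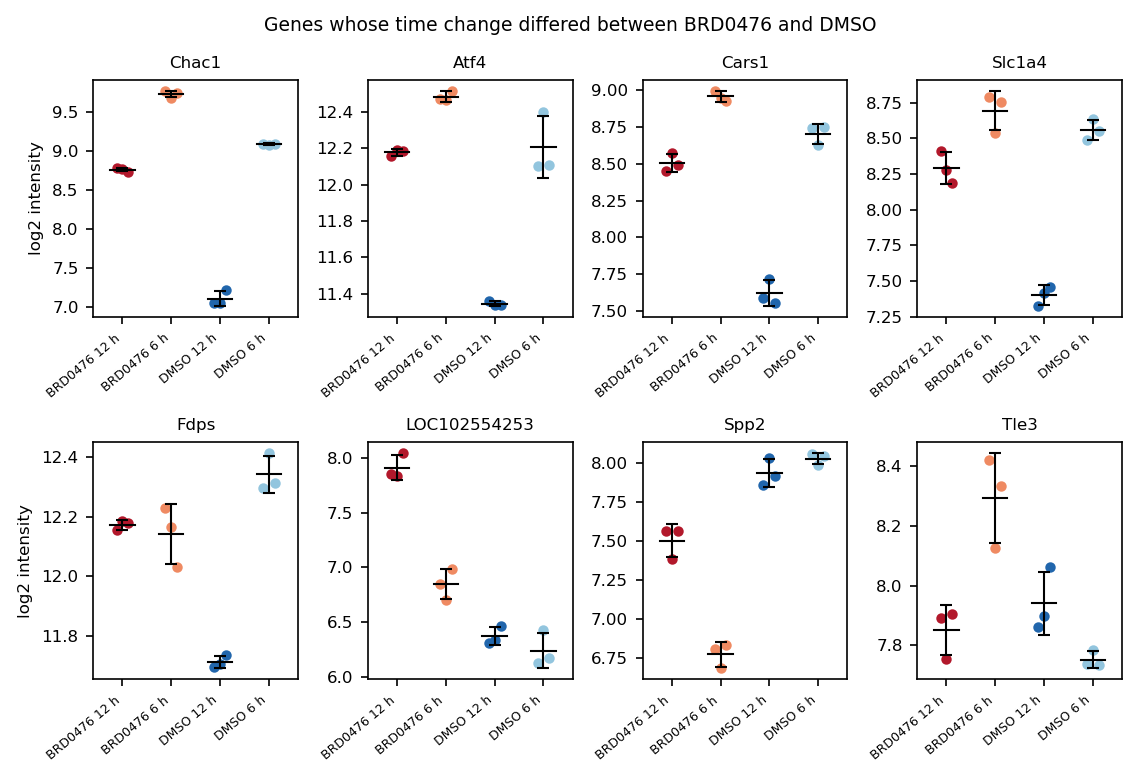
Levels (log2 intensity, vertical axes, each on its own range) of 8 genes whose change over time differed between BRD0476 and DMSO, with one point per array and the mean and SD of 3 arrays per group. For Chac1, Atf4, Cars1, Slc1a4 and Fdps the 12 h DMSO arrays lie far below the rest, LOC102554253 and Spp2 rise with BRD0476 alone, and Tle3 is highest with BRD0476 at 6 h.

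Gene lists of beta-cell function and of the cytokine pathways held between 0 and 2 calls each with BRD0476 alone, read against 2.77% of all genes. Of 19 receptors that tune insulin secretion 2 fell (10.5%), Gcgr and the prolactin receptor Prlr, and of 23 exocytosis genes 2 fell (8.7%), Stx4 and Rab37, with list medians of -0.03 and 0.01. The calls of Gcgr and Rab37 held with each array left out. That of Prlr was lost without 12 h replicate 1, 2 or 3 or 6 h replicate 1 or 3 (adjusted p up to 0.135), and that of Stx4 without 12 h replicate 2 or 3 or 6 h replicate 1 or 2 (up to 0.105). None of 16 beta-cell transcription factors, 39 respiratory chain and ATP synthase genes, 26 cytosolic ribosomal proteins, 30 proteasome subunits or 32 JAK-STAT components and SOCS genes was called. Ins1 had 14.59, 14.59 and 14.58 at 12 h, against 14.50, 14.58 and 14.41 at 6 h, a change of 0.09 with a 95% interval from -0.02 to 0.20 (adjusted p = 0.503). Ins2 was at -0.01 (-0.14 to 0.11, adjusted p = 0.964) and Pdx1, the pancreatic homeodomain factor, at 0.22 (0.05 to 0.39, adjusted p = 0.183). Jak2, the kinase that interferon-gamma and growth hormone receptors use, was at 0.07 (-0.22 to 0.36, adjusted p = 0.917), and Usp9x, a deubiquitinase, at -0.10 (-0.26 to 0.06, adjusted p = 0.686). These intervals leave room for small changes in either direction, other than for Pdx1, whose unadjusted interval lay above 0.

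In the cytokine lists 1 of 31 interferon targets (Irf7, -0.39, adjusted p = 0.0334) and 1 of 28 NF-kB targets (Cd40, -0.78, adjusted p = 0.0204) were lower. These shares of 3.2% and 3.6% lay near the 2.77% of all genes called. Cd40 also fell in DMSO, by 1.04 (adjusted p = 0.00246). The call of Irf7 was lost without 5 of the 6 arrays, 12 h replicates 1 to 3 and 6 h replicates 1 and 3, and that of Cd40 without 12 h replicate 1 or 2 or 6 h replicate 1, with adjusted p-values over the alternatives up to 0.149 for Irf7 and 0.11 for Cd40. Endoplasmic reticulum chaperones and unfolded protein response genes had 1 of 27 called (3.7%), also near that share. In DMSO 4 of 27 were called (14.8%, against 1.67% of all genes). Hspa5, the chaperone BiP, was at 0.14 ± 0.06 with BRD0476 (adjusted p = 0.292), against 0.30 in DMSO, where it was called (adjusted p = 0.00665), and the difference was not called.

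Cell cycle genes had small changes. Of 34 DNA replication and G1/S genes, 2 fell (5.9%, against 2.77% of all genes called), and 31 of 34 changes were negative at a median of -0.13. The 2 were Mcm7 and E2f8, whose calls were lost under 7 and 5 of 15 alternatives. In DMSO 6 fell, at a median of -0.18. Of 31 mitosis and spindle genes, 2 fell (6.5%) at a median of -0.07. They were Nusap1, a call lost under 9 of 15 alternatives, and Kif11. Kif11, the spindle motor Eg5, had 10.62, 10.59 and 10.63 at 12 h, against 10.86, 10.87 and 10.88 at 6 h. Its arrays lay within 0.05 of each other at each time and did not overlap, a fall of 0.26 ± 0.05 (adjusted p = 0.00231). Its dimmer probe set was at -0.08 (adjusted p = 0.816), and the call was lost with the mean of its probe sets (0.0987) and with only the arrays compared (0.0783).

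**Figure D5:**
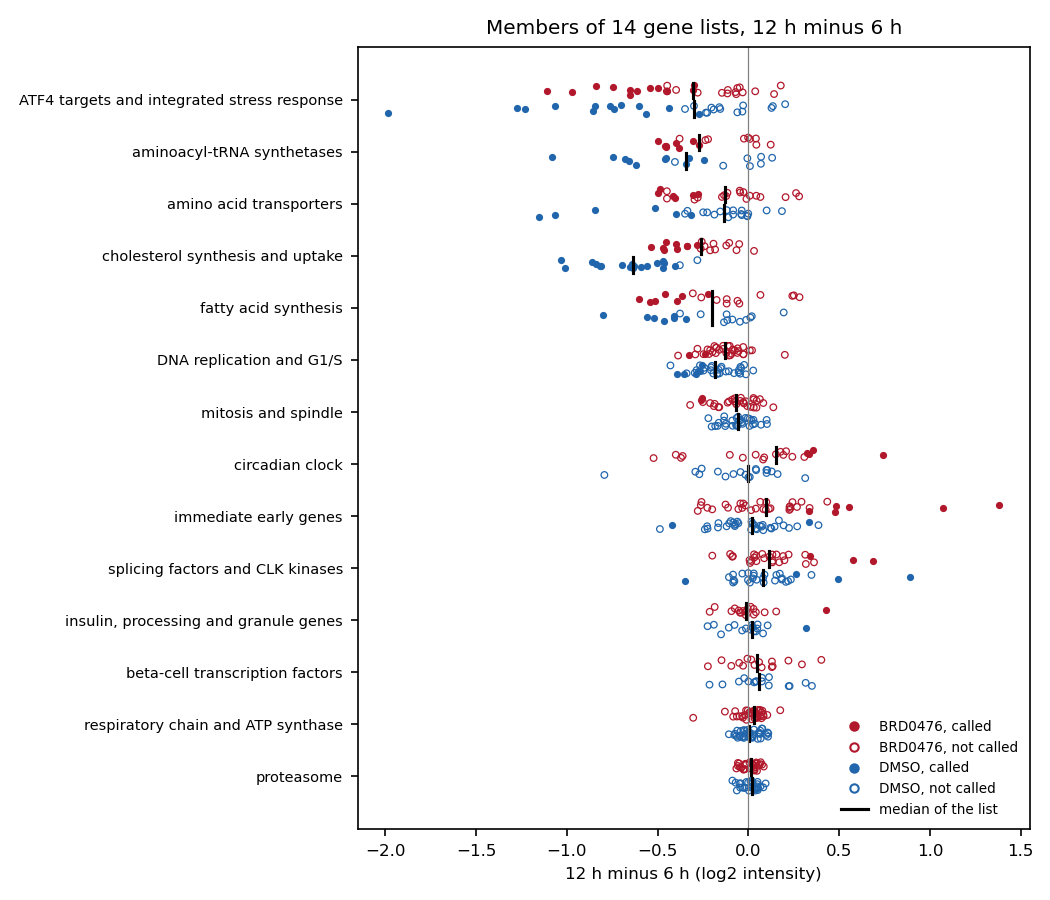
Change between 6 and 12 h (12 h minus 6 h, log2 intensity, horizontal axis) of each measured member of the gene lists named on the vertical axis, with BRD0476 above DMSO in each list; filled points are genes called at an adjusted p under 0.05 and black bars are list medians. The ATF4, synthetase, cholesterol and fatty acid lists lie left of 0 with BRD0476 and in DMSO, cholesterol genes farther left in DMSO, and proteasome and respiratory chain genes stay near 0.

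Markers of other cell kinds were mostly near the dimmest signals. Of 16 leukocyte markers 0 lay above the median of all values, of 15 fibroblast and stellate cell markers 4 (Fn1, Pdgfra, Thy1 and Sparc), of 10 endothelial markers 2 (Kdr and Esam), of 15 exocrine and ductal markers 2 (Krt7 and Epcam) and of 8 markers of other islet cells 1 (Gcg, at 10.54 at 12 h and 10.47 at 6 h). The defining genes Ptprc, Col1a1, Pecam1 and Sst lay at 3.63, 4.38, 3.11 and 3.71 at 12 h, and at 3.62, 4.44, 3.15 and 3.68 at 6 h. Kdr, also a defining endothelial gene, lay higher, at 6.46 at 12 h and 5.99 at 6 h. Its changes of 0.48 with BRD0476 and 0.57 in DMSO were not called. Fn1, a matrix protein, was the only one of these markers called (-0.25, adjusted p = 0.0432), a call lost under 9 of 15 alternatives, among them leaving out 12 h replicate 1, 2 or 3 or 6 h replicate 1 or 3 (adjusted p up to 0.243). With BRD0476 the summed linear intensity of a list ran from 5134.6 to 5347.7 at 12 h, against 4779.8 to 5019.6 at 6 h, for exocrine and ductal markers, and from 561.1 to 581.8, against 482.3 to 524.8, for endothelial markers. In DMSO the endothelial sums rose too, from 628.8 to 640.8 at 12 h, against 533.0 to 574.0 at 6 h. There the exocrine and ductal sums overlapped, from 5573.3 to 5697.3 at 12 h, against 5367.4 to 5588.5 at 6 h. For the other marker lists the sums with BRD0476 overlapped between the times, and what part these shifts have in the gene results was not tested. In these bulk samples fewer cells of a type and less RNA per cell cannot be told apart.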

How the data were processed

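Per the labels' protocols, total RNA of INS-1E cells was labelled with biotin for Affymetrix arrays, and per the submitters' processing notes RMA gave the deposited intensity values, its version and chip definition being not given in the sources used here. The linear intensities of 31099 probe sets were taken to log2. Of 20826 probe sets with 1 gene symbol in the platform annotation, the brightest stood for each of 14217 genes. The array number limits the precision, and the labels give no detection calls.

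The 8 group means of all 24 arrays were estimated by limma 3.58.1 under R 4.3.3 (16 residual and 3.97 prior degrees of freedom). The smallest two-sided p of an exact test of 3 arrays against 3 is 0.1, so calls rest on the model. In simulated data the steps recovered 8, 42, 50 and 50 of 50 genes changed by 0.25, 0.5, 1 and 2, with 10 false among 160 calls over 14217 genes.

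The members and lists were chosen with earlier results of these data known. Named by a rule were the 15 largest rises and falls among called genes without overlap, up to 8 genes a direction for the difference, up to 4 called members of a list (or 2 where none was), and a panel. Alternatives were other sets of arrays, array weights, a replicate block, an intensity trend, means of a gene's probe sets, probe sets taken singly, a filter on dim genes, centring, quantile normalization and leaving out each array.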

Additional observations from a re-analysis of the deposited data

Results flagged for a closer look

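For 10 genes the change over time differed between BRD0476 and DMSO by a test of the difference itself (limma, change with BRD0476 minus change in DMSO, adjusted over 14217 genes). The difference was positive for Chac1 (1.02), LOC102554253 (0.93), Dbp (0.91), Spp2 (0.82), Slc1a4 (0.75), Fdps (0.66), Cars1 (0.63), Atf4 (0.55) and Tp53inp2 (0.43). It was negative for Tle3 (-0.63). A positive difference means a smaller fall or a larger rise from 6 h to 12 h with BRD0476 than in DMSO, not a higher level. The differences of Chac1, Dbp and Fdps were called under all 21 alternatives. That of LOC102554253 was lost under 2 (adjusted p up to 0.0572), Slc1a4 under 4, Spp2 under 6, Atf4 under 10, Cars1 under 11, Tp53inp2 under 12 and Tle3 under 13. The 21 include leaving out each of the 12 arrays in turn. LOC102554253 kept its call without each of them, Slc1a4 lost it without replicate 1 of the 12 h BRD0476 or 12 h DMSO arrays (adjusted p up to 0.0682), and the other 5 lost it without 6 or more of them. Spp2 lost it (adjusted p up to 0.0729) without 12 h BRD0476 replicate 1 or 3, 6 h BRD0476 replicate 2, 12 h DMSO replicate 1 or 3 or 6 h DMSO replicate 1. Atf4 kept it only without 6 h BRD0476 replicate 3 or a 6 h DMSO array (otherwise up to 0.0729), Cars1 only without replicate 2 of either DMSO group (up to 0.115), Tle3 only without 6 h BRD0476 replicate 2 (up to 0.21), and Tp53inp2 only without 6 h BRD0476 replicate 1, 12 h DMSO replicate 3 or 6 h DMSO replicate 2 or 3 (up to 0.115).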

How the results depend on the processing

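No change of a named gene with BRD0476 and none of the 10 called differences changed direction while called. Other genes, and the changes in DMSO, were not checked for this gene by gene. The 394 calls with BRD0476 became 221 with only the arrays compared and 906 with array weights, and ran from 211 to 286 without single arrays. The 238 calls in DMSO became 97, 1545 and 132 to 279 under the same settings. The 10 differences became 5 with only the arrays compared, 5 with only the 12 arrays without cytokines, 66 with array weights, and 4 to 11 without single arrays. The 12 arrays without cytokines gave 462 calls with BRD0476 and 267 in DMSO. The causes were not tested. In DMSO the split of 66 higher and 172 lower became 14 and 83 with only the arrays compared, 824 and 721 with array weights, and 135 and 144 without 6 h replicate 2. The numbers were not taken as pairs because no label says that a replicate number marks a shared culture or day. The deviations of the arrays from their group means were correlated between the times. With BRD0476, r was 0.026, 0.378 and 0.303 for like numbers and ran from -0.349 to 0.049 for unlike numbers. In DMSO r was -0.097, 0.076 and -0.051 for like numbers. Whether cultures were shared was not tested. With a replicate block 376, 214 and 11 genes were called, 358 of the 394 among them. Of 84 named genes called, 54 were called under all 15 alternatives. Centring moved the split of calls with BRD0476 to 160 higher and 198 lower. The number of arrays limits the precision.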
